A study of Homo sapiens with 6 samples.

Results

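The type I interferon receptor and the JAK-STAT pathway behind it were followed through 9 genes, taken by name from a table of 60606 human genes. They comprise 4 receptor and kinase genes (IFNAR1, IFNAR2, JAK1 and TYK2), 4 transcription factor genes (STAT2, IRF9, IRF1 and IRF7) and the feedback inhibitor SOCS1. All 9 were found once in the table, and all 9 entered the test, which took the 14140 genes that averaged 1 TPM or more. TPM is the share of a tumor's transcripts that come from a gene, scaled for gene length and to the same total in every tumor. RNA was sequenced from 6 tumors grown from MDA-MB-231, a human triple-negative breast cancer line, injected as wild-type cells with Matrigel under the skin of NSG mice, which lack T, B and natural killer cells. Of these, 3 irradiated tumors had received one local X-ray dose of 10 Gy at about 800 mm3 and were taken 3 days later, and 3 control tumors were not irradiated. Neither the age of the mice nor the size of the control tumors when taken is given in the sources used here. Whether each tumor grew in its own mouse is not stated in the labels. A p-value here therefore sets the difference between groups only against the spread among these samples, and that spread may be technical.

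Type I interferons bind a receptor built from the chains IFNAR1 and IFNAR2. The kinases TYK2, bound to IFNAR1, and JAK1, bound to IFNAR2, then phosphorylate STAT proteins, STAT2 among them. STAT2 and IRF9 are subunits of the complex ISGF3, which binds the interferon-stimulated response element (ISRE) in the promoters of its target genes, while STAT dimers bind the gamma-activated site (GAS). The receptor chains and kinases are made in most cells without a stimulus, whereas IRF7, IRF1, IRF9, STAT2 and SOCS1 are themselves known as genes that interferons induce. In irradiated tumor cells the pathway is known to be switched on downstream of DNA that reaches the cytosol.

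Promoters are shown for the members in which an ISRE or GAS core was found, because these elements are the route by which the pathway acts on its own genes. RefSeq promoter windows of 300 bases, 250 before and 50 after a start site (GRCh38.p14), were found for 7 of the 9 members, 10 windows in all. IFNAR2 and IRF7 had no window in the table. The 250 bases before the start site read as follows, from 5′ to 3′ on the strand of the gene, with the matching letters in capitals.
IRF9 chr14:24161015-24161264 (plus strand): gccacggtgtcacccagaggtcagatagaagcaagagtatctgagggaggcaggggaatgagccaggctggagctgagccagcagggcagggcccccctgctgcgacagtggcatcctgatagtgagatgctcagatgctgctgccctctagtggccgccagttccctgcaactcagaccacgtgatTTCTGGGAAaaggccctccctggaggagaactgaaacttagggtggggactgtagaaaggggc
IRF1 chr5:132490774-132491023 (minus strand): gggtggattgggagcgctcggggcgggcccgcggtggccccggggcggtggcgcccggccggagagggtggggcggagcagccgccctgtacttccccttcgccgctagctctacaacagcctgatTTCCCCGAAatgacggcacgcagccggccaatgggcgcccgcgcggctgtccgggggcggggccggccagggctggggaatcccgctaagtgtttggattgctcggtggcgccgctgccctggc
SOCS1 chr16:11256205-11256454 (minus strand): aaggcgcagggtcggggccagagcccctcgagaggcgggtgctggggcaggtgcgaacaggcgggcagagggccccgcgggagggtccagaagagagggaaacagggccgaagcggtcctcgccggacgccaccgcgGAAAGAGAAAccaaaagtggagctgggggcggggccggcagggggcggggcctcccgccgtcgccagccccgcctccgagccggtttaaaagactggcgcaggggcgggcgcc
The capitals in IRF9 mark TTCTGGGAA, which begins 63 bases before the start site, and those in IRF1 mark TTCCCCGAA, 124 bases before it. Both match the GAS letters TTCNNNGAA, which 7.66% of all 35116 RefSeq windows hold. The RefSeq start site of the IRF9 window lies downstream of the GENCODE start of that gene, 24161053. The IRF9 match, at 24161202 to 24161210, is thus inside the GENCODE span of the gene. The capitals in SOCS1 mark GAAAGAGAAA, 113 bases before the start site, a match to the ISRE core (GAAA, any pair of bases, GAAA), which 3.57% of windows hold. Both strands were searched for each motif. The fuller ISRE form, in which CT follows the core, is held by 0.273% of windows and was in none of the 10. The windows of STAT2, TYK2, JAK1 (3 windows) and IFNAR1 (2 windows) held none of these letters. A match of letters is a description of the window, and binding was not measured here.

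Across the 6 tumors, the 4 transcription factor genes had higher mean levels in irradiated than in control tumors, and the 4 receptor and kinase genes differed by little. None of the 9 members passed an adjusted p of 0.05 in limma, where 2.98% of all tested genes did (1.37% higher and 1.61% lower in irradiated tumors). At an unadjusted p under 0.05 there were 4 members, the 4 transcription factor genes, all higher in irradiated tumors. Of all tested genes, 8.93% were higher at that unadjusted level and 11.5% lower. All 3 irradiated tumors lay above all 3 controls for IRF7, IRF1 and IRF9, as they did for 11.6% of tested genes. All 3 lay below the controls for IFNAR1, as for 15.0% of tested genes. The median log2 fold change of the 9 members was 0.28, beside a median of -0.056 over all tested genes. Each log2 fold change is the irradiated mean less the control mean of log2(TPM + 1), a scale that understates changes in low genes such as SOCS1.

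**Figure D1:**
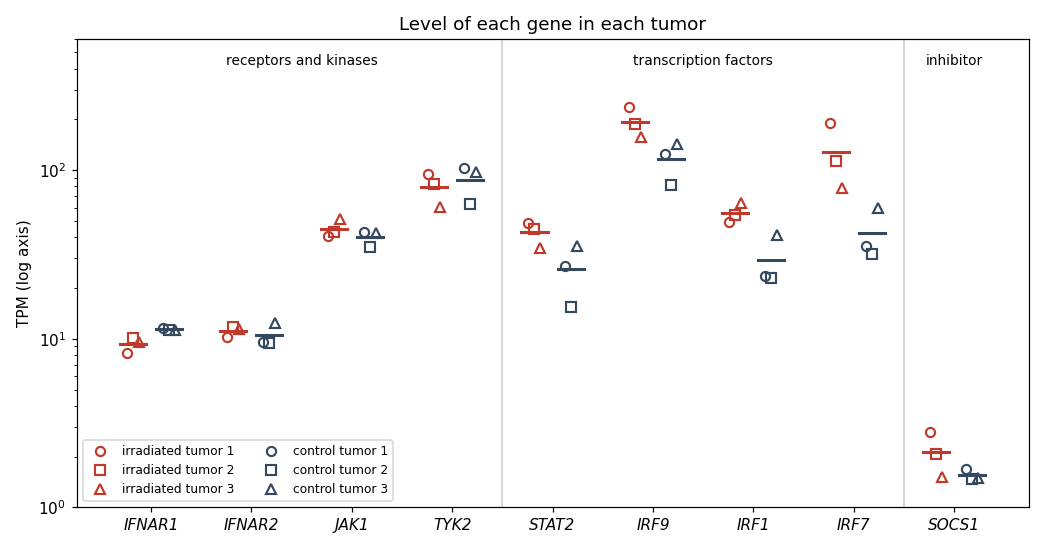
Level of each of the 9 genes in each tumor, in TPM on a log axis, with red symbols for the 3 irradiated tumors, dark symbols for the 3 control tumors, and a bar at each group's mean. The irradiated tumors lie above every control for IRF9, IRF1 and IRF7, and below every control for IFNAR1.

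IFNAR1, the receptor chain that binds TYK2, was at 8.27, 10.2 and 9.63 TPM in irradiated tumors 1, 2 and 3, and at 11.6, 11.2 and 11.3 TPM in control tumors 1, 2 and 3. The controls lay close together and every irradiated tumor was below them. The means were 9.35 ± 0.971 TPM in irradiated and 11.4 ± 0.168 TPM in control tumors (SD, n = 3 each). The log2 fold change of -0.26 did not pass the test (95% interval -0.64 to 0.12, limma adjusted p = 0.407). The gene (ENSG00000142166) is protein-coding and lies on chromosome 21 from 33324477 to 33359862 in GRCh38.

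IFNAR2, the receptor chain that binds JAK1, was at 10.3, 11.8 and 11.5 TPM in the irradiated tumors and at 9.61, 9.43 and 12.4 TPM in the controls. The groups overlapped, and control tumor 3 was the highest of the 6. Its log2 fold change was 0.09 (95% interval -0.31 to 0.50, adjusted p = 0.802). IFNAR2 (chromosome 21, 33229901 to 33265675) shares 2038 bases of exon with a read-through gene on the same strand, at 1.41 TPM in irradiated and 1.48 TPM in control tumors on average. Added to that gene, IFNAR2 had a log2 fold change of 0.07. Its exons also share 1803 bases, 39.1% of the total, with IL10RB-DT on the opposite strand, at 1.57, 0.84 and 0.78 TPM in irradiated tumors and at 1.45, 1.66 and 1.36 TPM in controls. With no strand use stated, reads from that stretch cannot be told apart. The ratio of IFNAR1 to IFNAR2 was 0.805, 0.862 and 0.840 in irradiated tumors and 1.20, 1.19 and 0.912 in controls. The ratio was thus below 1 in every irradiated tumor and in control tumor 3, and above 1 in control tumors 1 and 2.

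JAK1, the kinase on IFNAR2, was at 40.9, 43.1 and 51.1 TPM in irradiated tumors and at 42.7, 35.1 and 42.1 TPM in controls (log2 fold change 0.17, 95% interval -0.19 to 0.52, adjusted p = 0.569). TYK2, the kinase on IFNAR1, was at 94.2, 83.0 and 60.6 TPM in irradiated tumors and at 103, 62.7 and 98 TPM in controls (log2 fold change -0.14, 95% interval -0.67 to 0.40, adjusted p = 0.779). Both kinases overlapped between the groups. Each group held 1 tumor with less TYK2 than the others, irradiated tumor 3 and control tumor 2. For JAK1 the low tumor among the controls was again tumor 2, and the highest of all 6 was irradiated tumor 3. TYK2 to JAK1 ratios were 2.31, 1.92 and 1.18 in irradiated tumors and 2.41, 1.79 and 2.33 in controls. The intervals of all 4 receptor and kinase genes include 0, and they also include differences of up to 0.52 upward and 0.67 downward on the log2 scale, so small changes were not detectable with 3 tumors a group.

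STAT2, the ISGF3 subunit that carries the activation domain, was at 48.8, 44.8 and 34.7 TPM in irradiated tumors and at 26.8, 15.4 and 35.6 TPM in controls. The groups overlapped, because control tumor 3 lay just above irradiated tumor 3. The means were 42.7 ± 7.23 TPM in irradiated and 25.9 ± 10.1 TPM in control tumors (SD, n = 3 each), a log2 fold change of 0.76 (95% interval 0.10 to 1.42, adjusted p = 0.184). Without control tumor 2, the lowest, the log2 fold change was 0.44.

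IRF9, the subunit that gives ISGF3 its DNA contact, was the most abundant of the 9 in both groups. It was at 237, 188 and 156 TPM in irradiated tumors and at 124, 82.2 and 142 TPM in controls. Every irradiated tumor lay above every control, by the least between irradiated tumor 3 and control tumor 3. The log2 fold change was 0.75 (95% interval 0.22 to 1.28, adjusted p = 0.123). IRF9, on chromosome 14 from 24161053 to 24166565, shares 1838 bases of exon with a same-strand protein-coding gene without a symbol of its own, which averaged 16.4 TPM in irradiated and 11.4 TPM in control tumors. With that gene added, the log2 fold change of IRF9 was 0.73. The ratio of IRF9 to STAT2 was 4.85, 4.20 and 4.50 in irradiated tumors and 4.62, 5.33 and 4 in controls, with the ranges of the groups overlapping.

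IRF1, a transcription factor that interferons are known to induce through GAS elements, was at 49.5, 54.0 and 63.5 TPM in irradiated tumors and at 23.6, 22.8 and 41.4 TPM in controls. Control tumors 1 and 2 lay close together, and control tumor 3 lay nearer the irradiated tumors. The means were 55.7 ± 7.18 TPM in irradiated and 29.3 ± 10.5 TPM in control tumors (SD, n = 3 each). The log2 fold change of 0.95 did not pass the test (95% interval 0.41 to 1.5, adjusted p = 0.0755). With control tumor 3 left out it was 1.22 and passed (adjusted p = 0.0308). IRF1 (chromosome 5, 132481609 to 132490798) shares 1716 bases of exon with IRF1-AS1 on the opposite strand. IRF1-AS1 was at 7.80, 4.32 and 4.38 TPM in irradiated tumors and at 2.41, 2.24 and 2.54 TPM in controls (log2 fold change 0.90, adjusted p = 0.0992). The use of strand is not given in the sources used here, so reads from the shared stretch, 22.0% of the exonic bases of IRF1, cannot be told apart.

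IRF7, which drives transcription of type I interferon genes and is a target of ISGF3, had the highest fold change of the 9. It was at 191, 114 and 77.9 TPM in irradiated tumors and at 35.4, 32.0 and 59.3 TPM in controls. Irradiated tumor 1 held more than the other irradiated tumors, and control tumor 3 more than the other controls. The means were 127 ± 57.6 TPM in irradiated and 42.2 ± 14.9 TPM in control tumors (SD, n = 3 each). The log2 fold change of 1.53 (SE 0.34, 95% interval 0.75 to 2.31) ranked 160 from the top among the 14140 tested genes, and missed the threshold (adjusted p = 0.0549). It passed with array weights (adjusted p = 0.0430), with a minimum mean of 5 TPM (0.0442) and with quantile normalization (0.0440), within a range of 0.0430 to 0.173 over all alternatives. IRF7 lies on chromosome 11 from 612553 to 615999. IRF3, its relative that is present before any stimulus, was at 138, 156 and 130 TPM in irradiated tumors and at 130, 103 and 132 TPM in controls (log2 fold change 0.22, adjusted p = 0.446). The ratio of IRF7 to IRF3 was 1.38, 0.728 and 0.600 in irradiated tumors and 0.272, 0.312 and 0.448 in controls, without overlap.

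SOCS1, which binds and inhibits JAK1 and TYK2 and is induced by the pathway it blocks, was the least abundant member. It was at 2.81, 2.08 and 1.52 TPM in irradiated tumors and at 1.69, 1.47 and 1.49 TPM in controls. Irradiated tumors 1 and 2 lay above the controls and irradiated tumor 3 lay among them. The log2 fold change was 0.28 (95% interval -0.30 to 0.86, adjusted p = 0.560). Because 1 TPM is added before the logarithm, this value depended on that constant, and was 0.40 with 0.1 TPM and 0.12 with 5 TPM.

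**Figure D2:**
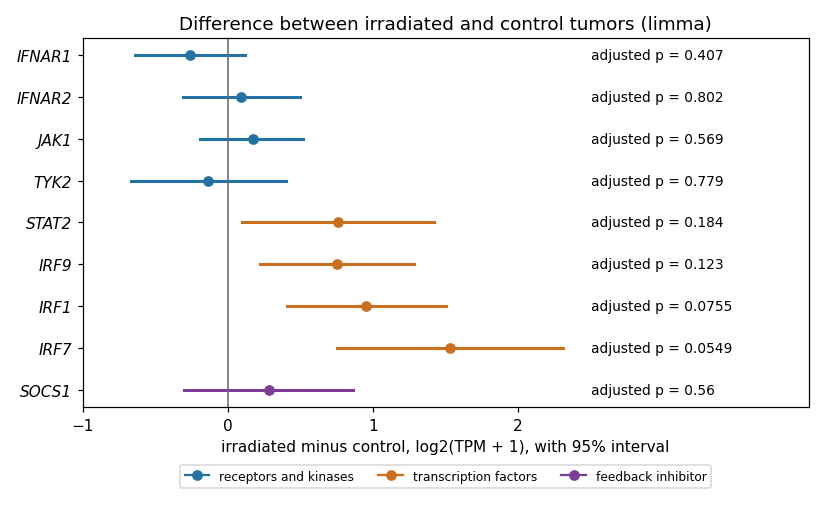
Difference between irradiated and control tumors for each gene on the log2(TPM + 1) scale, with points at the limma estimate, lines over its 95% interval (n = 3 tumors a group) and the adjusted p beside it. The intervals of STAT2, IRF9, IRF1 and IRF7 lie above 0, those of the other 5 genes include 0, and no adjusted p is under 0.05.

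Set against each other by class, the transcription factors stood further above the receptors and kinases in every irradiated tumor than in any control. The mean log2(TPM + 1) of STAT2, IRF9, IRF1 and IRF7 was 6.69, 6.43 and 6.19 in irradiated tumors and 5.39, 5.01 and 5.92 in controls. That of IFNAR1, IFNAR2, JAK1 and TYK2 was 4.67, 4.75 and 4.67 in irradiated tumors and 4.80, 4.54 and 4.85 in controls. The difference between the classes was therefore 2.03, 1.67 and 1.52 in irradiated tumors and 0.59, 0.47 and 1.07 in controls, with means of 1.74 ± 0.26 and 0.71 ± 0.32 (SD, n = 3 each). Irradiated tumors exceeded controls by 1.03 on this log2 measure, and by 0.89 to 1.21 with single tumors left out. The classes were chosen with results known, so no test was made of this difference. In linear terms, the 4 transcription factors summed to 526, 401 and 332 TPM in irradiated tumors and to 210, 152 and 279 TPM in controls. The sums of the 4 receptor and kinase genes were 154, 148 and 133 TPM in irradiated tumors and 167, 118 and 164 TPM in controls.

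**Figure D3:**
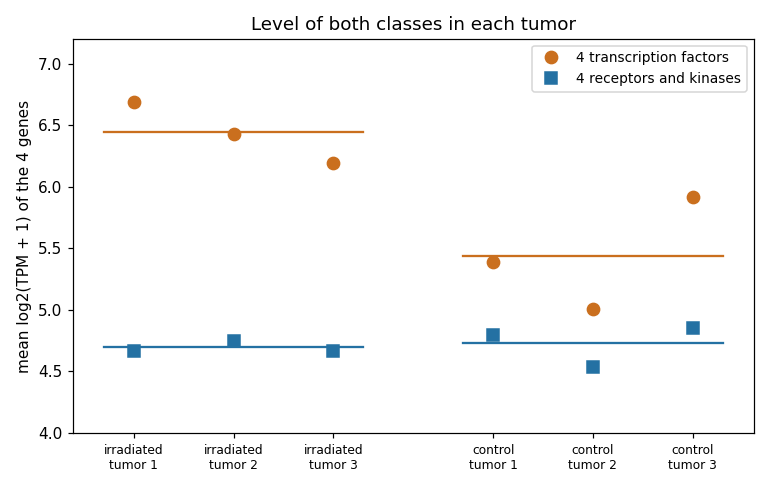
Mean log2(TPM + 1) of the 4 transcription factor genes (circles) and of the 4 receptor and kinase genes (squares) in each tumor, with lines at the group means; the axis starts at 4. The circles lie at 6.19 to 6.69 in irradiated and 5.01 to 5.92 in control tumors, and the squares at 4.67 to 4.75 and 4.54 to 4.85.

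The order of the levels also differed between the groups. In irradiated tumors the mean TPM descended in the order IRF9, IRF7, TYK2, IRF1, JAK1, STAT2, IFNAR2, IFNAR1 and SOCS1. In controls the order was IRF9, TYK2, IRF7, JAK1, IRF1, STAT2, IFNAR1, IFNAR2 and SOCS1. Between neighbours, the ranges over the 3 irradiated tumors overlapped all the way from IRF9 down to STAT2, and separated STAT2, IFNAR2, IFNAR1 and SOCS1. In controls they separated TYK2 from IRF7, STAT2 from IFNAR1 and IFNAR2 from SOCS1, and overlapped elsewhere. Both receptor chains were thus several times less abundant than either kinase in every tumor. IRF7 was below TYK2 in every control, at 32.0 to 59.3 against 62.7 to 103 TPM, and in irradiated tumors the ranges met, at 77.9 to 191 for IRF7 and 60.6 to 94.2 TPM for TYK2.

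The tumors within a group were not alike. Irradiated tumor 1 was the highest of the 6 for STAT2, IRF9, IRF7 and SOCS1, while IRF1 and JAK1 were highest in irradiated tumor 3. Control tumor 3 had the highest level among controls for all 4 transcription factors. Control tumor 2 was the lowest of all 6 tumors for 7 of the 9 members, IFNAR1 and TYK2 being the exceptions. Control tumor 2 also stood apart over all genes, on a second principal component with 19.1% of the variance. Its 86 genes for ribosomal proteins made up 27.0% of the summed TPM. Their share was 21.4% to 22.3% in irradiated tumors, and 20.5% and 19.8% in control tumors 1 and 3. The part of this in the members' values was not tested. Without control tumor 2 the log2 fold changes of IRF7, IRF1, IRF9 and STAT2 were 1.36, 0.80, 0.52 and 0.44.

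Around the members, none of the 6 tested genes among the other JAK and STAT genes passed, with a median log2 fold change of 0.06. Among them were STAT5B (-0.37, adjusted p = 0.390) and STAT5A (0.21, adjusted p = 0.563), which serve mainly cytokine and hormone receptors. JAK3 and STAT4, at most at 1.26 and 0.44 TPM in any tumor, were too low to be tested. Of 4 other interferon receptor genes none passed, and all 4 had a fold change above 0, with a median of 0.30. Of the 14140 tested genes, 6268 had a fold change above 0. IL10RB is the chain that the receptor for type III interferons shares with that of interleukin 10. It was at 26.9, 26.0 and 20.9 TPM in irradiated tumors and at 18.1, 17.2 and 15.1 TPM in controls (0.52, adjusted p = 0.130). Every irradiated tumor lay above every control, as for 11.6% of tested genes. IL10RB passed with array weights (0.61, adjusted p = 0.0489). The chains of the interferon gamma receptor, IFNGR1 (0.34, adjusted p = 0.304) and IFNGR2 (0.27, adjusted p = 0.480), overlapped between the groups.

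Of the other IRF genes, 4 were measured and none passed, with a median of 0.21. IRF2, which competes with IRF1 for the same DNA elements, was at 27.5, 24.8 and 27.1 TPM in irradiated tumors and at 22.8, 14.0 and 12.0 TPM in controls (0.72, adjusted p = 0.134). The ratio of IRF1 to IRF2 overlapped, at 1.80, 2.18 and 2.35 in irradiated and 1.03, 1.62 and 3.45 in control tumors. IRF8, a factor of myeloid cells, was at 1.15 ± 0.598 TPM in irradiated and 2.01 ± 0.254 TPM in control tumors (SD, n = 3 each; -0.53, adjusted p = 0.344).

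Inhibitors of interferon signalling other than SOCS1 did not move one way. Of 15 tested none passed, 7 had a fold change above 0 and 8 below, and the median was -0.11. Among the 14140 tested genes, 6268 were above 0 and 7872 below. USP18, which binds IFNAR2 and blocks signalling there, was at 102, 62.0 and 43.1 TPM in irradiated tumors and at 17.3, 11.8 and 41.3 TPM in controls. Its log2 fold change of 1.62 did not pass (adjusted p = 0.0972). With control tumor 3 left out it was 2.11 and passed (adjusted p = 0.0480). PIAS2, named as an inhibitor of activated STAT, was at 3.78, 5.27 and 4.71 TPM in irradiated tumors and at 10.7, 7.62 and 8.20 TPM in controls (-0.81, adjusted p = 0.0799). PTPN2, a phosphatase that acts on JAK1, was at 14.5, 14.5 and 15.5 TPM in irradiated tumors and at 21.3, 18.9 and 24.6 TPM in controls (-0.51, adjusted p = 0.127). With array weights PIAS2 (-0.78, adjusted p = 0.0495) and PTPN2 (-0.60, adjusted p = 0.0431) passed. The groups did not overlap for these 3 genes, with USP18 higher and PIAS2 and PTPN2 lower in irradiated tumors. Among all 15, irradiated tumors lay above every control for 2 and below for 4, beside 11.6% and 15.0% of all tested genes.

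Of 12 kinases and adaptors upstream of IRF3 and IRF7, 1 passed, beside 2.98% of all tested genes. MYD88, the adaptor that couples Toll-like and interleukin 1 receptors to IRF7 and NF-kB, rose to 130, 86.4 and 77.1 TPM in irradiated tumors, against 46.9, 35.7 and 52.5 TPM in controls (log2 fold change 1.08, SE 0.23, adjusted p = 0.0460). The call was lost with any 1 of the 6 tumors left out, with adjusted p between 0.0636 and 0.127, and also with 5 TPM added (0.0536), without trend (0.0835) and without a filter (0.14). The median of the 12 genes was 0.15.

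Genes for the interferons themselves were at or near 0, apart from IFNL1 in irradiated tumors 1 and 2. Of 22 interferon genes, 19 were listed at 0 in every tumor, all type I genes and IFNG among them, and none reached the mean of 1 TPM needed for the test. The other 3, named after their values were seen, encode type III interferons, which signal through IFNLR1 and IL10RB to the same kinases JAK1 and TYK2. IFNL1 was at 2.55, 1.96 and 0.38 TPM in irradiated tumors and at 0.13, 0.12 and 0.39 TPM in controls. It did not pass in a fit without a filter on low values (log2 fold change 1.01, limma unadjusted p = 0.0326, adjusted p = 0.335). IFNL2 stayed at or under 0.87 and IFNL3 at or under 0.49 TPM in every tumor, and reads of these near-identical genes can be split in more than 1 way. The table holds human genes only, and transcripts of the mouse host were not analysed here.

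Among 30 tested effector genes that interferons induce, all had a fold change above 0 and 8 rose, with a median log2 fold change of 1.46. CMPK2 and CXCL10, also on this list of 32, were too low to be tested, at most at 0.03 and 1.05 TPM in any tumor. Of all 14140 tested genes, 1.37% rose and 6268 had a fold change above 0. OASL rose to 257, 146 and 139 TPM in irradiated tumors, against 20.6, 13.4 and 40.2 TPM in controls (adjusted p = 0.00943). UBE2L6 (adjusted p = 0.0159), PSMB9 (0.0251) and OAS1 (0.0292) followed. The number that rose was 2, 2 and 4 without irradiated tumors 1, 2 and 3, and 0, 6 and 6 without control tumors 1, 2 and 3. It was 0 without a filter on low values, 2 without trend, 12 with quantile normalization and 14 with array weights. The order of the tumors within each group for OASL, irradiated tumor 1 highest, control tumor 3 highest and control tumor 2 lowest, was that of IRF7, IRF9 and STAT2.

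**Figure D4:**
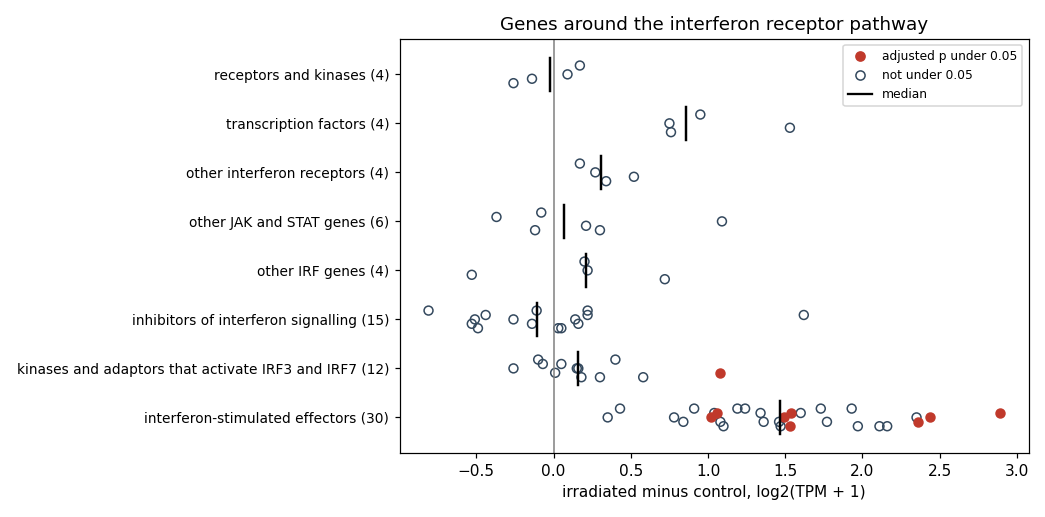
Log2 fold change (irradiated minus control) of every tested gene in the receptor, kinase and factor classes and in the lists around them, with the number of genes in brackets, filled points for an adjusted p under 0.05 and a bar at the median. Filled points are MYD88 among the kinases and adaptors and 8 of the 30 interferon-stimulated effectors.

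The genes whose levels ran most like the mean of the 4 standardized transcription factors over the 6 tumors, among genes averaging 5 TPM or more, were EDEM2, TXNIP, C4BPB, TRANK1, IFIT2 and CHAC1, with Pearson correlations of 0.991 to 0.999. The 6 points share the contrast of the groups. None of the 6 genes passed the test, with adjusted p from 0.0508 for IFIT2 to 0.155 for EDEM2. Under 5 of the 17 alternatives each, IFIT2 and CHAC1 passed, with lowest adjusted p of 0.0334 and 0.0420, and TXNIP passed without control tumor 3 (0.0392). TXNIP was at 127, 116 and 90.2 TPM in irradiated tumors and at 47.6, 32.0 and 79.2 TPM in controls. For the mean of the 4 receptors and kinases the 4 closest genes were SARS2, MSI2, TADA2B and DGCR8, with correlations of 0.989 to 0.997, log2 fold changes between -0.21 and -0.03, and control tumor 2 lowest for each.

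In bulk tumors, fewer cells of a type and less RNA per cell cannot be told apart. Of the labelled cell line's markers, 6 mesenchymal genes were present in every tumor, VIM at 3148 to 3685 TPM in irradiated and 3797 to 5283 TPM in control tumors, while ESR1, PGR and CDH1 were at no more than 0.32 TPM in any. Of the other epithelial genes on that list, ERBB2 was at 32.7 to 34.3 TPM in irradiated and 25.4 to 40.7 TPM in control tumors, and EPCAM at 2.90 to 4.79 TPM in irradiated and 4.79 to 5.10 TPM in control tumors. Markers of leukocytes, which have JAK-STAT transcripts of their own, ranged from absent to well measured. The 10 markers of T, B and natural killer cells summed to 1.70 to 5.36 TPM in irradiated and 1.37 to 2 TPM in control tumors. Of these MS4A1 was listed at 0 in all 6 tumors, and CD3D reached 4.44 TPM in irradiated tumor 2. The 5 plasmacytoid dendritic cell markers summed to 2.67 to 4.68 TPM in irradiated and 3.73 to 8.40 TPM in control tumors. Nearly all of that was TCF4, at 2.43 to 4.37 TPM in irradiated and 3.6 to 8.11 TPM in control tumors (log2 fold change -0.76, limma unadjusted p = 0.0388), and CLEC4C and LILRA4 were at 0 in all 6. The 6 neutrophil markers summed to at most 0.08 TPM. The 10 macrophage markers summed to 97.5 to 193 TPM in irradiated and 82.9 to 105 TPM in control tumors, most of it from the lysosomal gene CD68. CD68 was at 187, 126 and 91.2 TPM in irradiated tumors and at 94.2, 74.9 and 84.8 TPM in controls, highest in irradiated tumor 1 as IRF7, IRF9 and STAT2 were. CSF1R was at 3.27 to 5.53 TPM in irradiated and 2.95 to 9.12 TPM in control tumors, AIF1 at 0.50 to 3.52 TPM in irradiated and 1.47 to 5.14 TPM in control tumors, and LYZ at 0.14 to 1.94 TPM in irradiated and 0.83 to 3.99 TPM in control tumors. The other 6 stayed under 1 TPM, TYROBP at 0 in all 6 tumors. The 7 endothelial markers summed to 3.28 to 9.30 TPM in irradiated and 2.42 to 7.02 TPM in control tumors. VIM, CD44 and AXL, 3 of the cell line's 6 markers, were lower in every irradiated tumor than in any control, as were 15.0% of tested genes. None of them passed an adjusted p of 0.05 (limma unadjusted p = 0.0162, 0.0129 and 0.00821). Some markers of other tissues also differed. The 9 fibroblast markers summed to 133 to 215 TPM in irradiated and 477 to 1005 TPM in control tumors. Of the 6 tested, 3 were called lower, beside 1.61% of all tested genes. Those 3, COL1A1, COL1A2 and COL3A1, made up most of the sum. FAP was also below every control, at 0.97 to 2.13 TPM in irradiated and 2.98 to 6.74 TPM in control tumors (limma unadjusted p = 0.0141). PDGFRB ran the other way, at 8.09 ± 4.34 TPM in irradiated and 3.51 ± 1.42 TPM in control tumors (SD, n = 3 each). Its log2 fold change was 0.95 (limma unadjusted p = 0.0372). Neither FAP nor PDGFRB passed an adjusted p of 0.05. DCN overlapped between the groups, and PDGFRA, LUM and THY1 were at no more than 0.39 TPM. The 10 skeletal muscle markers summed to 1.5, 84.0 and 2.1 TPM in irradiated tumors and to 125, 158 and 346 TPM in controls. Of the 9 tested, 3 were called lower, beside 1.61% of all tested genes. Every irradiated tumor lay below every control for 8 of the 9, beside 15.0% of all tested genes. The host cells in these tumors are mouse cells, while the table holds human genes and no step against mouse reads is stated. Which cells gave these marker values therefore cannot be told, and the sums do not measure amounts of host cells. The part of such cells and tissues in the levels of the 9 members was not tested.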

How the data were processed

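RNA-seq libraries of 6 xenograft tumors, 3 irradiated and 3 control, were made with an Illumina TruSeq RNA kit, per the labels' protocols. The values are TPM per gene as deposited by the authors, given to 2 decimals in 1 table whose 6 columns are named for the tumors. HISAT2, StringTie and RSEM are named, without versions or order, with the build hg38, per the submitters' processing notes. No source used here states an annotation release, strand use or a step against mouse reads. TPM keeps no depth, so the depth behind each value is unknown, and neither counting intervals nor count tests apply. Columns fell short of the full total by 0.523% to 0.774% in irradiated and 0.143% to 0.198% in control tumors.

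The groups were compared by limma 3.58.1 in R 4.3.3 (trend, two-sided) on log2(TPM + 1), over the 14140 genes averaging 1 TPM or more. Group was the only term, with Benjamini-Hochberg adjustment over all of them at 0.05. The fit was tested on simulated data with 200 changed genes. Noise was drawn separately for each gene and tumor, so shifts shared by many genes within a tumor were not covered. The members and gene lists were chosen with earlier results of these data known. Named genes are the 9 members, called genes of each pathway list or else the 3 with the smallest p, 4 of the effector list, and those most correlated with the class means. Some genes of these lists are not reported here. Positions and exon overlaps came from GENCODE release 29 (GRCh38, the assembly of hg38), promoters from RefSeq. Alternatives were other pseudocounts, filters, scalings and limma settings, a replicate block, leaving out single tumors, and, added after seeing the data, read-through genes added to members.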

Additional observations from a re-analysis of the deposited data

How the results depend on the processing

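Under 17 alternatives IRF7, IRF1, IRF9 and STAT2 kept their positive fold changes. Their log2 fold changes ranged over 1.19 to 1.83, 0.73 to 1.22, 0.52 to 0.91 and 0.44 to 1.02, and IFNAR1 ranged from -0.32 to -0.18. The number of the 9 members called was 1 with array weights, with a minimum mean of 5 TPM and with quantile normalization, each time IRF7, and it was 0 to 1 with single tumors left out, the 1 being IRF1 without control tumor 3. Over all genes, those called higher ranged from 57 to 229 and those called lower from 67 to 562 with single tumors left out. They numbered 426 and 638 with array weights, and 69 and 64 without a filter. With quantile normalization 309 were called higher, and without trend 142 lower. Deviations of same-numbered tumors from their group means had correlations of -0.059 to -0.043 over genes, and those of other pairs -0.031 to 0.075. With 3 tumors a group these values cannot decide whether the numbers pair the tumors, and the labels do not tie them together. With a replicate block 88 genes were called higher and 97 lower, and 0 members. Under that block 4 of the 30 effectors were called, and MYD88 had adjusted p = 0.0652. With single tumors left out, TYK2 ranged from -0.36 to 0.04 (above 0 without irradiated tumor 3), DGCR8 from -0.60 to 0.06, MSI2 from -0.13 to 0.03, SARS2 from -0.23 to 0.12 and TADA2B from -0.26 to 0.09. Quantile normalization gave 0.03 for MSI2, SARS2 and TADA2B, and scaling by medians of ratios gave 0.03, 0.02 and 0.01. The causes were not tested. The unknown depth limits low genes such as SOCS1 and the interferon genes most.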
